A study of Mus musculus with 12 samples.

Results

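The 9 genes described here carry the phosphotransfer system that moves high-energy phosphate through the heart cell: the creatine kinases Ckm, Ckb, Ckmt1 and Ckmt2, the creatine synthesis enzymes Gatm and Gamt, and the adenylate kinases Ak1, Ak3 and Ak4. They were taken by symbol from a gene table of 51826 entries, each symbol matching 1 entry, and all 9 were abundant enough to be tested in every comparison. The table holds poly(A)-selected, stranded RNA-Seq of the atria and ventricles of 3 CUG960 mice (V119, V120 and V123) and 3 MHCrtTA control mice (V327, V333 and V334), so that the 12 libraries form 4 groups of 3. CUG960 mice, a model of the heart disease of myotonic dystrophy type 1, are homozygous for TREDT960I, a tetracycline-responsive transgene with 960 interrupted CTG repeats in a part of human DMPK, and hemizygous for MHCrtTA, and the controls are hemizygous for MHCrtTA alone. All 6 animals were female, on the FvB background and 10 weeks of age, and both genotypes received doxycycline (dox) from postnatal day 1. The α myosin heavy chain promoter of MHCrtTA limits induction of the repeat RNA to cardiomyocytes, whereas each library holds RNA of the whole chamber. The table has no entry for the transgene, so the repeat RNA itself was not measured here. The libraries held between 116127966 and 160676189 estimated gene counts, and levels are given as CPM, the usual scale of a gene's counts relative to those of its whole library, on normalized library sizes.

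Creatine kinases transfer phosphate between ATP and creatine. The mitochondrial isoenzymes sit in the intermembrane space and make phosphocreatine from newly exported ATP, while the cytosolic isoenzymes regenerate ATP from phosphocreatine at the myofilaments and ion pumps. Adenylate kinases convert ADP into ATP and AMP, which makes them a second route of phosphate transfer and a source of the AMP that AMP-activated protein kinase senses. The adult heart depends on both routes, and it takes up most of its creatine from the blood through a transporter rather than making it.

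The chamber labels were checked against marker genes before the comparisons. Myl2, the ventricular myosin light chain, lay between 8.82 and 33.5 CPM in the 6 atrial libraries and between 8505 and 10520 CPM in the ventricular libraries, so the highest atrial value, in V327, was 0.356% of the ventricular control mean. The atrial light chain Myl7 was 8.02, 4.98 and 19.3 CPM in the control ventricles of V327, V333 and V334. In CUG960 ventricles it was 0.192 CPM in V119, 0.304 CPM in V120 and 55.9 CPM in V123, so the ventricular library of V123 had the most Myl7 and its 2 companions the least. The summed level of 5 atrial markers in ventricles was 77.6, 77.3 and 153 CPM in V327, V333 and V334 and 91.4, 231 and 312 CPM in V119, V120 and V123, with Nppa the most abundant of them. The atrial library of V334 stood apart in Hbb-bs, a hemoglobin chain, at 1281 CPM against 152 to 257 CPM in the other 5 atrial libraries.

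In atria, 4 of the 9 genes passed the test between CUG960 and control (edgeR quasi-likelihood test, Benjamini-Hochberg adjusted P under 0.05), all 4 lower in CUG960: Ckmt2, Ak4, Ckm and Ak1. Of all 17650 genes tested in atria, 15.1% passed and 6.91% passed as lower. Ckmt2, Ak4 and Ckm also differed by at least 1.5-fold, a limit that 2.12% of all genes passed as lower. In ventricles, Ckmt2 and Ak4 passed, again lower and by at least 1.5-fold, against 10.5% of 16909 genes that passed in either direction, 4.44% that passed as lower and 1.75% that were also lower by this limit. None of the 9 passed as higher, where 8.22% of all genes did in atria and 6.04% in ventricles. The median log2 fold change of the 9 genes was -0.23 in atria and -0.13 in ventricles, where the medians of all genes tested were -0.01 in each chamber. Because each library is bulk tissue, fewer cells of a type and less RNA per cell cannot be told apart.

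**Figure D1:**
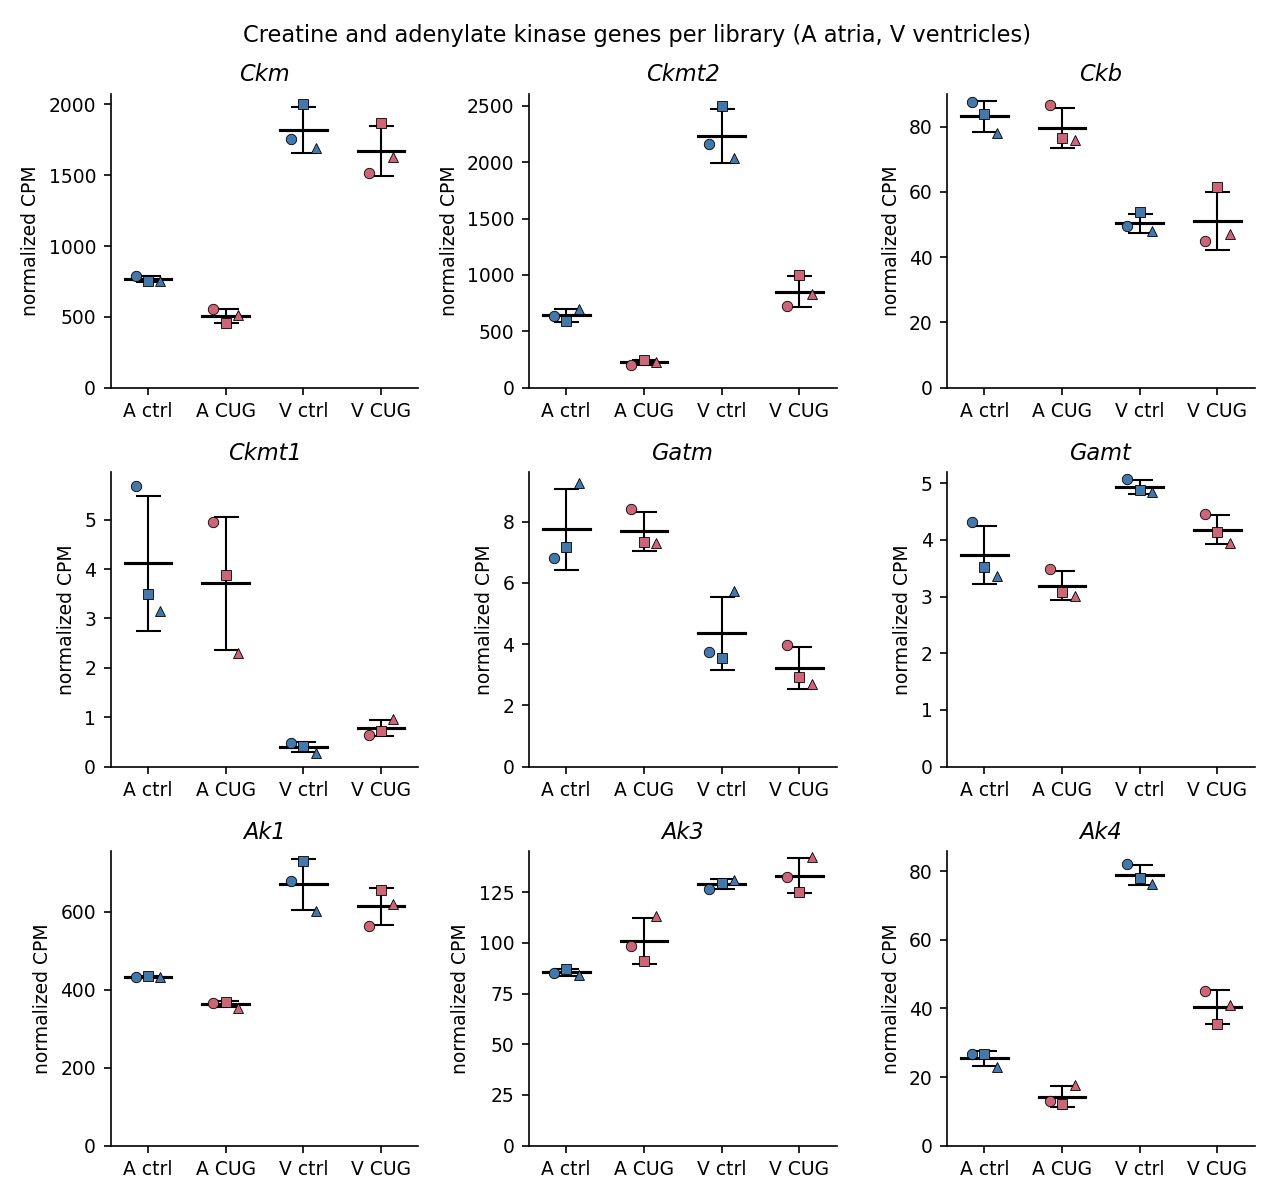
Normalized CPM (vertical axes, linear from 0) of each gene in the 12 libraries, grouped on the horizontal axis as atria (A) and ventricles (V) of control (ctrl, blue) and CUG960 (CUG, red) mice; each point is 1 library, circles, squares and triangles being V327, V333 and V334 in controls and V119, V120 and V123 in CUG960, and lines give the mean ± SD (n = 3). Ckmt2 and Ak4 show separate control and CUG960 points in both chambers, whereas Ckb points overlap in both.

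Ckmt2, the sarcomeric mitochondrial creatine kinase, showed the largest fall of the 9 in both chambers. In control atria it stood at 636 CPM in V327, 588 CPM in V333 and 696 CPM in V334, and in CUG960 atria at 202 CPM in V119, 242 CPM in V120 and 228 CPM in V123. In control ventricles the values were 2163, 2494 and 2036 CPM, and in CUG960 ventricles 728, 996 and 831 CPM, in the same order of mice. Every CUG960 library was below every control library of its chamber, and every CUG960 ventricle remained above every control atrium. The log2 fold change was -1.52 in atria (SE 0.09, 2.86-fold lower, adjusted P = 1.63e-05) and -1.39 in ventricles (SE 0.13, 2.62-fold lower, adjusted P = 0.000116). Without V334 the atrial value was -1.45, and without V123 the ventricular value was -1.37. Among the 1362 genes that averaged 100 CPM or more over the 6 atrial libraries, 4 had a more negative fitted fold change in atria, and among the 1521 such genes of the ventricular libraries 2 did. These were Coq8a, Jun and the hemoglobin genes Hba-a1 and Hbb-bs in atria, and Pdk4 and Coq8a in ventricles, genes named after their values were seen. Of these, Coq8a passed the test in both chambers and the others did not pass. Coq8a, which encodes a mitochondrial protein needed for coenzyme Q synthesis, fell by 1.94 on the log2 scale in atria and by 2.60 in ventricles (adjusted P = 3.39e-06 and 2.50e-07).

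Ckm, the cytosolic muscle creatine kinase, was lower in CUG960 atria. Control atria held 789, 755 and 755 CPM in V327, V333 and V334, and CUG960 atria 555, 457 and 510 CPM in V119, V120 and V123. The groups did not overlap, as held for 35.7% of all genes tested in atria. The log2 fold change was -0.60 (SE 0.08, 1.51-fold lower, adjusted P = 0.00172), close to the fold limit of 1.5, and without V120 or V327 it was under that limit at -0.53 and -0.58, whereas without V334 it was -0.60. In ventricles Ckm was 1757, 2000 and 1693 CPM in controls and 1518, 1867 and 1630 CPM in CUG960. These groups overlapped, and the log2 fold change of -0.12 (95% interval -0.35 to 0.12) did not pass (adjusted P = 0.531).

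Ckb, the cytosolic isoenzyme of brain and other non-muscle tissues, lay between 78.2 and 87.4 CPM in control atria and between 75.9 and 86.6 CPM in CUG960 atria. In ventricles it lay between 48.0 and 53.7 CPM in controls and between 44.8 and 61.4 CPM in CUG960. The groups overlapped in both chambers, with log2 fold changes of -0.06 (95% interval -0.23 to 0.10) and 0.02 (95% interval -0.23 to 0.28). Of the 75-base stretches of Ckb transcript, 13.4% recur in another annotated gene, Gm12892, which was at most 0.468 CPM.

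Ckmt1, the ubiquitous mitochondrial creatine kinase, was the least abundant of the 9 in ventricles. Control ventricles held 0.47, 0.43 and 0.28 CPM (52, 45 and 31 counts in V327, V333 and V334) and CUG960 ventricles 0.64, 0.73 and 0.96 CPM (94, 101 and 120 counts in V119, V120 and V123). All CUG960 values were above the control values, and 31.2% of all genes tested in ventricles likewise had groups that did not overlap, in either direction. The log2 fold change was 0.99 (SE 0.29, 1.99-fold), and its call depended on the filter. It missed the threshold with edgeR under the filter used here (adjusted P = 0.0545), and passed with edgeR without a filter (0.0309), with edgeR under a minimum of 10 counts in every library (0.0478) and with DESeq2 (0.0306). DESeq2 was not run under the filter used here, so filter and tool cannot be told apart for its call. The value without V123, the ventricular library with the most Myl7, was 0.81 (adjusted P = 0.162), and without V334 it was 0.80 (adjusted P = 0.147). The part of atrial transcript in this value was not tested. In atria Ckmt1 was 5.68, 3.50 and 3.15 CPM in controls and 4.96, 3.87 and 2.29 CPM in CUG960, overlapping groups with a log2 fold change of -0.15 (95% interval -0.95 to 0.66, adjusted P = 0.813).

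The promoters of Ckm and Ckmt2 are shown because these 2 creatine kinases fell in CUG960 atria while Ckmt2 alone of them passed in ventricles. Each runs from 250 bases before to 50 bases after the RefSeq transcription start (build GRCm38.p6), written 5′ to 3′ in the direction of transcription. Capitals mark E-boxes, the letters CANNTG that basic helix-loop-helix factors read and that are the same on both strands.
Ckmt2, chr13:91876836-91877135, minus strand: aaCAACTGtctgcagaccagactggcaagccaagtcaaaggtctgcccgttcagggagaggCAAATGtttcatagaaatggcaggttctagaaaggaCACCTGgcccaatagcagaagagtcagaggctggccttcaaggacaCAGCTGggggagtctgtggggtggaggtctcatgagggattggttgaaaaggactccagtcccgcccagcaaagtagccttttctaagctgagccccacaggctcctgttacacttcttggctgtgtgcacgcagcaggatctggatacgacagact
Ckm, chr7:19410844-19411143, plus strand: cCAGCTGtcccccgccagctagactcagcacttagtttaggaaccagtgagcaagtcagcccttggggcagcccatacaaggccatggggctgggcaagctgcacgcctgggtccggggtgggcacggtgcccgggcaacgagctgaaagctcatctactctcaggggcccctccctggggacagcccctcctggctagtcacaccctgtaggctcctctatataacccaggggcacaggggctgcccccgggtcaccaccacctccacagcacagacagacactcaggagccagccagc
The Ckmt2 window held 4 E-boxes, a number reached by 6.48% of 32544 RefSeq promoters, and the Ckm window held 1, at its far end, where 72.3% of promoters held at least 1. Neither window held the estrogen-related receptor motif AAGGTCA on either strand, found in 4.71% of promoters, nor a MEF2 site or a CArG box. Such matches describe letters in a window, and no binding was measured here. In the gene annotation (GENCODE M21, GRCm38), Ckmt2 spans chr13:91853387-91876885 with 10 exons in its principal transcript, and Ckm spans chr7:19404776-19422841 with 8, its RefSeq start lying inside this span. The antisense gene A930016O22Rik overlaps 451 bases of Ckm on the other strand, at no more than 2.30 CPM in any library. Ckb lies at chr12:111669361-111672338 on the minus strand and Ckmt1 at chr2:121357714-121363737 on the plus strand.

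The 2 enzymes that make creatine, encoded on the minus strand by Gatm (chr2:122594467-122611303) and Gamt (chr10:80258151-80261012), did not pass the test in either chamber. Gatm, which forms guanidinoacetate from arginine and glycine, was 6.82, 7.17 and 9.27 CPM in control atria and 8.40, 7.32 and 7.31 CPM in CUG960 atria, a log2 fold change of -0.01 (95% interval -0.31 to 0.28). In ventricles it was 3.76, 3.56 and 5.73 CPM in controls and 3.98, 2.93 and 2.71 CPM in CUG960, a log2 fold change of -0.44 (95% interval -0.91 to 0.03, adjusted P = 0.227), with overlap because V119 exceeded 2 of the controls. Gamt, which methylates guanidinoacetate to creatine, was 5.08, 4.87 and 4.85 CPM in control ventricles and 4.45, 4.13 and 3.95 CPM in CUG960 ventricles. These ventricular groups did not overlap, as held for 31.2% of all genes tested there. The log2 fold change of -0.24 missed the threshold (adjusted P = 0.235). In atria the Gamt groups overlapped, between 3.36 and 4.31 CPM in controls and between 3.01 and 3.48 CPM in CUG960, with a log2 fold change of -0.23 (adjusted P = 0.30).

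Ak4, an adenylate kinase of the mitochondrial matrix with little catalytic activity, fell in both chambers. In atria it was 26.6, 26.8 and 22.8 CPM in V327, V333 and V334 and 13.0, 12.1 and 17.8 CPM in V119, V120 and V123. In ventricles it was 82.2, 78.0 and 76.4 CPM in controls and 45.0, 35.4 and 40.9 CPM in CUG960. No CUG960 library reached a control library of its chamber. The log2 fold change was -0.83 in atria (SE 0.15, 1.78-fold lower, adjusted P = 0.00814) and -0.96 in ventricles (SE 0.09, 1.95-fold lower, adjusted P = 0.000186). V123 had the highest Ak4 of the CUG960 atria, and without it the atrial value was -1.03. Without V334 it was -0.90 in atria, and without V123 it was -0.97 in ventricles. Of the 75-base stretches of Ak4 transcript, 10.0% recur in the pseudogene Ak3l2-ps, which was at most 0.0179 CPM in these libraries.

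The Ak4 promoter is shown beside this result because Ak4 is known as a gene of the hypoxia response. Capitals mark the hypoxia response core, ACGTG or GCGTG on either strand, which overlaps the E-box where the letters CACGTG occur.
Ak4, chr4:101419039-101419338, plus strand: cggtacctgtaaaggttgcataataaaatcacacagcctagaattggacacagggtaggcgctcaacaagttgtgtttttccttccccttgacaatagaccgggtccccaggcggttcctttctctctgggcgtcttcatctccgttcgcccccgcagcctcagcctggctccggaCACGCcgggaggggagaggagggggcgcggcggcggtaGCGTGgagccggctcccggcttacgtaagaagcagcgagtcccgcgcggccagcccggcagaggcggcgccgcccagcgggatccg
The window held 2 copies, 74 and 36 bases before the start, where 44.0% of RefSeq promoters held at least 1 copy, and it held no E-box. In the annotation Ak4 spans chr4:101419277-101466995, with 6 exons in its principal transcript.

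Ak1, the main cytosolic adenylate kinase of muscle (chr2:32621758-32635058, plus strand), had a smaller change. Control atria were at 432, 434 and 432 CPM, and CUG960 atria at 366, 368 and 353 CPM. These 2 narrow groups did not overlap, as held for 35.7% of all genes tested in atria. The log2 fold change was -0.26 (SE 0.06, 1.195-fold lower, adjusted P = 0.018), and leaving out V120, V333 or V334 in turn gave adjusted P values of 0.0506, 0.0711 and 0.0736 with the log2 fold change between -0.27 and -0.26. In ventricles Ak1 was 677, 731 and 601 CPM in controls and 563, 657 and 621 CPM in CUG960, overlapping groups with a log2 fold change of -0.13 (95% interval -0.34 to 0.09, adjusted P = 0.469).

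Ak3, the GTP-dependent adenylate kinase of the mitochondrial matrix (chr19:29020833-29047961, minus strand), ran the other way in atria without passing. It was 85.3, 87.0 and 83.9 CPM in control atria and 98.2, 90.9 and 113 CPM in CUG960 atria. The log2 fold change was 0.24 (95% interval 0.06 to 0.42, adjusted P = 0.0819), although all CUG960 values were above the controls. Groups likewise did not overlap for 35.7% of all genes tested in atria. In ventricles Ak3 lay between 126 and 131 CPM in controls and between 125 and 142 CPM in CUG960, with overlap and a log2 fold change of 0.05. Cdc37l1, on the opposite strand, overlaps 430 bases of Ak3 and was expressed at 39.9 to 120 CPM, and the strand setting of the counting is not given in the sources used here, so a part of the Ak3 counts is uncertain.

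**Figure D2:**
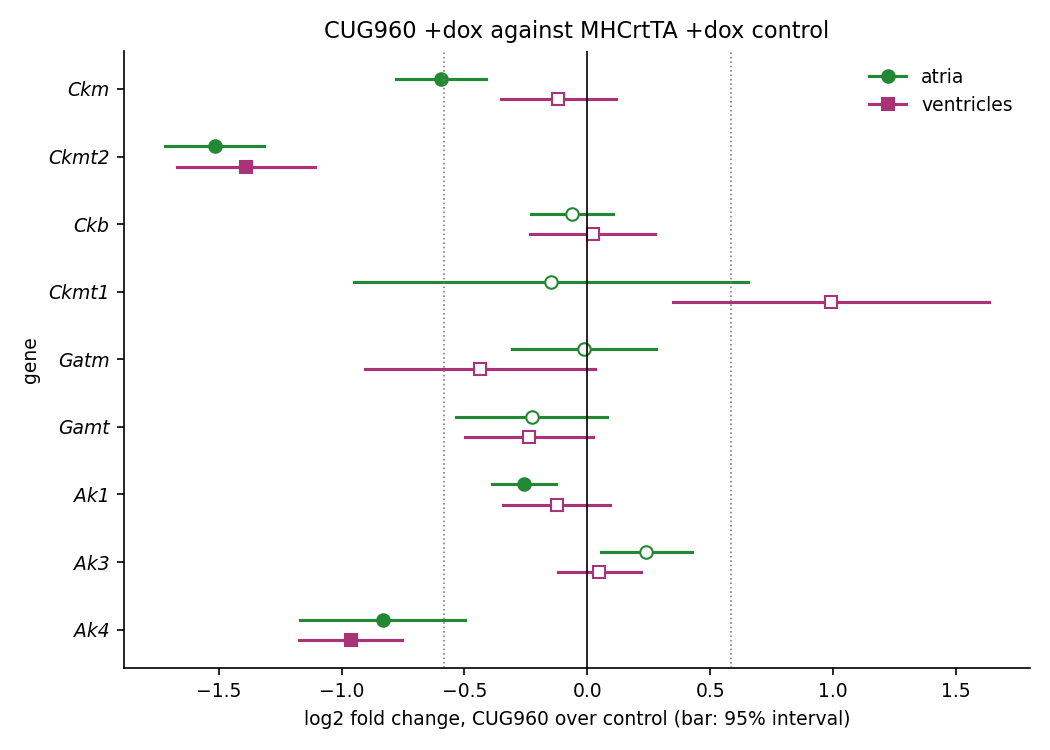
Fitted log2 fold change of CUG960 over control (horizontal axis) for each gene (vertical axis) in atria (circles) and ventricles (squares); bars are 95% intervals, filled symbols passed an adjusted P of 0.05 and dotted lines mark a 1.5-fold change. Ckmt2 and Ak4 are filled in both chambers, at -1.52 and -0.83 in atria and -1.39 and -0.96 in ventricles, while Ckm and Ak1 are filled in atria.

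The test of whether the change differed between chambers gave no pass among the 9 genes, against 266 of 18327 genes (1.45%). For Ckmt2 the change in atria minus the change in ventricles was -0.13 on the log2 scale (95% interval -0.48 to 0.23), and for Ak4 it was 0.13 (95% interval -0.26 to 0.52). Ckm had the smallest P of the 9, with a difference of -0.48 (95% interval -0.77 to -0.18, unadjusted P = 0.00374, adjusted P = 0.131), meaning a larger fall in atria, and it was -0.50 without V123 and -0.44 without V334 (adjusted P = 0.238 and 0.288). With DESeq2 the Ckm difference passed (log2 difference -0.47, adjusted P = 0.0377). Ckm and Ckmt1 were the 2 members with an unadjusted P under 0.05 by edgeR. For Ckmt1 the difference was -1.14 (95% interval -2.09 to -0.18, adjusted P = 0.308), -0.71 without V123 and -1.10 without V334 (adjusted P = 0.534 and 0.376).

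All 9 genes differed between atria and ventricles in controls, where 55.9% of 18327 genes did, and all 9 differed again in CUG960, where 54.1% did. In both genotypes 6 of the 9 were lower in atria and 3 were higher, against 27.3% of all genes lower and 28.6% higher in controls, and 26.9% lower and 27.2% higher in CUG960. In controls Ckmt2 was 3.49-fold lower in atria than in ventricles (log2 fold change -1.80, SE 0.12, adjusted P = 2.09e-08), Ak4 was 3.10-fold lower (-1.63, SE 0.13) and Ckm 2.37-fold lower (-1.25, SE 0.10). Ak1, Ak3 and Gamt were lower in control atria by 1.55-, 1.51- and 1.32-fold. The other 3 genes were higher in atria. Ckmt1 was 10.5-fold higher (log2 fold change 3.39, SE 0.34, adjusted P = 1.75e-06), Gatm 1.78-fold and Ckb 1.65-fold. In CUG960 the directions were the same, with log2 fold changes of -1.93 for Ckmt2, -1.72 for Ckm, -1.50 for Ak4 and 2.25 for Ckmt1. The Ckmt1 value in CUG960 was 2.68 without V123 and 1.85 without V119 (adjusted P = 2.43e-05 and 0.00106), and in controls it was 3.35 without V334 (adjusted P = 2.03e-05). Gamt, at an adjusted P of 0.0108 in controls and 0.0137 in CUG960, lost its call in controls without V333 or V334 (adjusted P = 0.0714 and 0.0719) and in CUG960 without V120 or V123 (0.0732 and 0.0548).

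**Figure D3:**
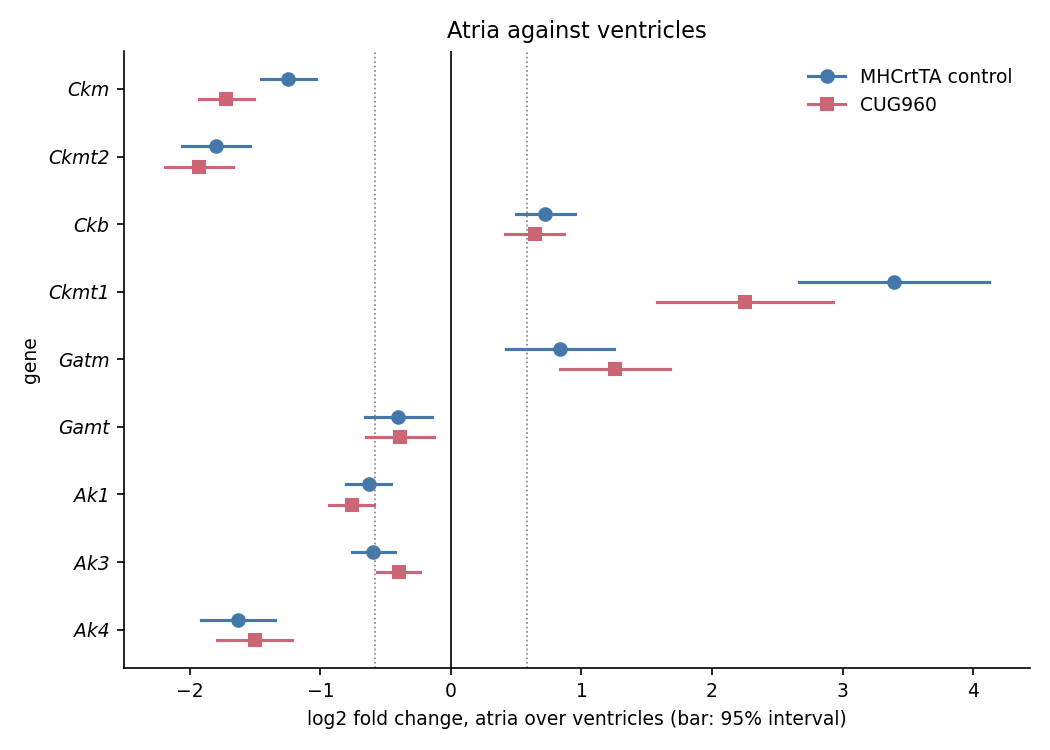
Fitted log2 fold change of atria over ventricles (horizontal axis) for each gene (vertical axis) in control (circles) and CUG960 mice (squares); bars are 95% intervals, filled symbols passed an adjusted P of 0.05 and dotted lines mark a 1.5-fold difference. All 18 symbols are filled, with Ckmt1, Gatm and Ckb to the right of 0 and the other 6 genes to the left.

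Levels of different genes were compared per kilobase of the principal annotated transcript. In control ventricles the order was Ckmt2 at 1501 ± 159 CPM per kilobase (mean ± SD, n = 3), Ckm at 663 ± 59, Ak1 at 321 ± 31, Ak3 at 45.9 ± 0.83, Ckb at 34.2 ± 2.0, Ak4 at 18.8 ± 0.72, Gamt at 4.99 ± 0.13, Gatm at 1.82 ± 0.50 and Ckmt1 at 0.242 ± 0.063. Each step of this order exceeded the SDs on either side of it by this length, but by merged exon length Ckb at 17.4 ± 1.0 and Ak4 at 17.0 ± 0.64 did not differ beyond their spread. In CUG960 ventricles Ckmt2 stood at 573 ± 91 and Ckm at 610 ± 65 CPM per kilobase, a difference within the spread of the group means. Within each of these 3 libraries Ckm was above Ckmt2 by this length, at 48.9% to 51.5% of the creatine kinase sum against 45.6% to 48.1%, while by merged exon length the means were 574 and 573 CPM per kilobase. In control atria the first places were Ckmt2 at 431 ± 37, Ckm at 280 ± 7.2 and Ak1 at 208 ± 0.61, and in CUG960 atria Ckm at 185 ± 18, Ak1 at 174 ± 3.8 and Ckmt2 at 151 ± 14. Ckm and Ak1 in CUG960 atria did not differ beyond their spread, and by merged exon length Ckmt2 at 151 ± 14 stood above Ak1 at 140 ± 3.1, again within their spread. At the low end of control atria, Gamt at 3.78 ± 0.51, Gatm at 3.24 ± 0.55 and Ckmt1 at 2.54 ± 0.85 overlapped.

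Shares were computed within the creatine kinases on the same length-scaled levels. The sum of the 4 creatine kinases per kilobase was 769 ± 35 in control atria and 392 ± 8.5 in CUG960 atria, and 2198 ± 220 in control ventricles and 1218 ± 162 in CUG960 ventricles. Of this sum, Ckmt2 made up between 54.2% and 58.7% in control atria and between 34.0% and 42.4% in CUG960 atria. In ventricles its share lay between 67.8% and 68.7% in controls and between 45.6% and 48.1% in CUG960. The mean Ckm share was 36.4% in control and 47.1% in CUG960 atria, and 30.2% and 50.2% in ventricles. The mean Ckb share was 7.36% and 13.8% in atria and 1.56% and 2.84% in ventricles. The Ckb share depends on the length used, since its merged exons are longer than its principal transcript, and it was 3.98% and 7.77% in atria by merged exons. These sums and shares are descriptions with no test.

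**Figure D4:**
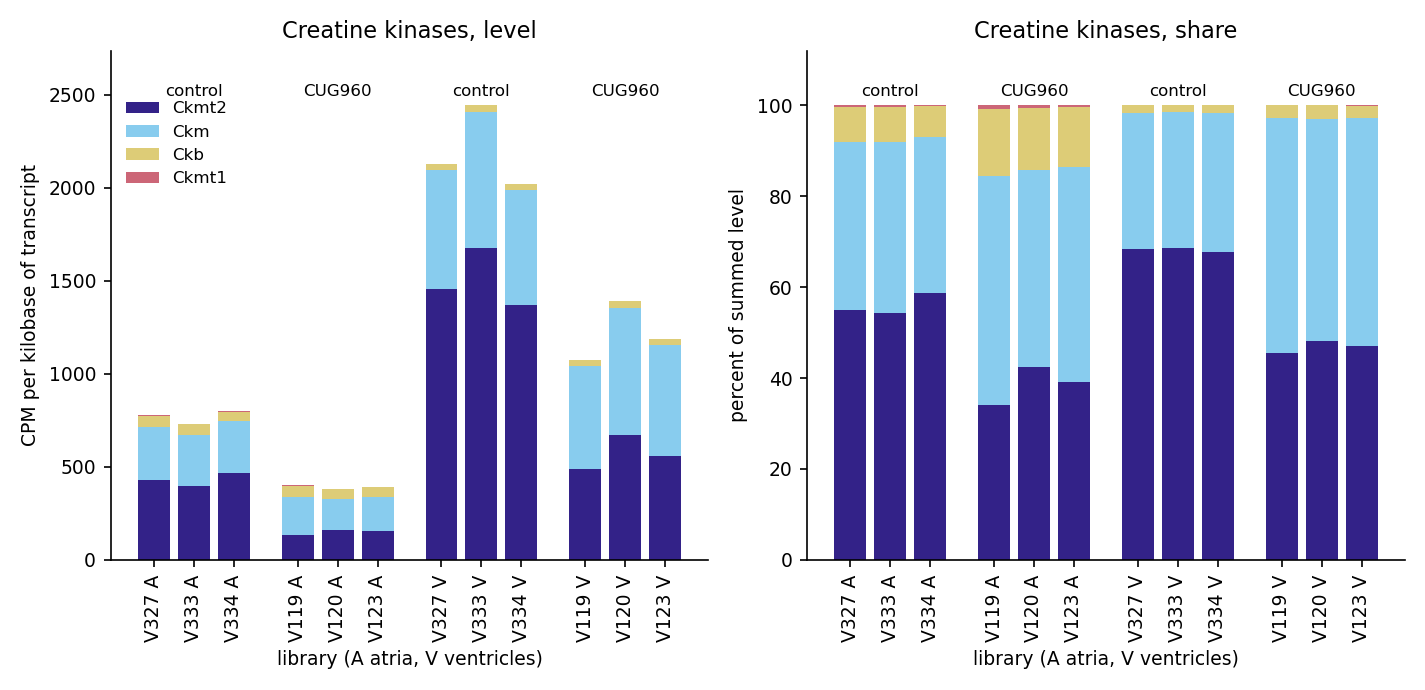
Stacked creatine kinases in each of the 12 libraries (horizontal axes), as CPM per kilobase of principal transcript (left, vertical axis) and as percent of the summed level (right, vertical axis). The bars of CUG960 libraries are shorter than those of controls in the same chamber on the left, and the dark Ckmt2 segment takes a smaller share in them on the right, between 34.0% and 48.1% against 54.2% to 68.7% in controls.

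Lists of genes that work around these enzymes were read next, each against the share of all genes that passed, 15.1% in atria (8.22% higher, 6.91% lower) and 10.5% in ventricles (6.04% higher, 4.44% lower). Among other adenylate and nucleotide kinases, 4 of 14 tested rose in atria and none fell, and none of 14 passed in ventricles, so that 28.6% and 0% of the list passed. Ak6, a nuclear adenylate kinase, rose from 42.9 ± 1.1 to 53.6 ± 2.9 CPM in atria (log2 fold change 0.32, adjusted P = 0.00915), and Guk1, which phosphorylates GMP, rose from 31.2 ± 0.72 to 42.0 ± 5.0 CPM (0.43, adjusted P = 0.0104). The median of this list was 0.13 in atria and 0.07 in ventricles.

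The creatine transporter Slc6a8 was 91.4 ± 2.4 CPM in control and 95.5 ± 8.4 CPM in CUG960 atria, and 219 ± 17 and 218 ± 19 CPM in ventricles. The fitted log2 difference between genotypes was 0.06 in atria (adjusted P = 0.61) and -0.01 in ventricles (adjusted P = 0.966). Of the list of creatine transport and precursor supply, 1 of 16 genes tested rose and 1 fell in atria, and 4 of 13 rose and 1 fell in ventricles. The share that passed was thus 12.5% in atria, near that of all genes, and 38.5% in ventricles, and the list medians were 0.03 and 0.07. Pemt, which uses S-adenosylmethionine, the methyl donor that creatine synthesis also uses, rose in ventricles from 0.977 ± 0.073 to 1.78 ± 0.44 CPM (log2 fold change 0.87, adjusted P = 0.0323). Slc7a1, a carrier of arginine and other cationic amino acids, fell in ventricles from 49.6 ± 2.5 to 32.6 ± 7.4 CPM (-0.60, adjusted P = 0.035).

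Among genes of AMP and purine turnover, 5 of 19 tested rose and 1 fell in atria, and 3 of 19 rose in ventricles, which is 31.6% and 15.8% of the list, with medians of 0.16 and 0.03. Nt5e, the surface enzyme that turns AMP into adenosine, rose in ventricles from 11.5 ± 0.12 to 17.3 ± 1.2 CPM (log2 fold change 0.60, adjusted P = 0.00264), while in atria its log2 fold change of 0.18 did not pass. Gda, guanine deaminase, fell in atria from 32.4 ± 5.7 to 20.1 ± 1.0 CPM (-0.69, adjusted P = 0.00736). Ampd1, the AMP deaminase of skeletal muscle, was under 0.03 CPM in every group mean and was not tested. Among the subunits and regulators of AMP-activated protein kinase, 3 of 12 rose in atria and 1 of 12 in ventricles, with none lower, which is 25% and 8.33% of the list, the latter under the share of all genes. Prkag2, 1 of its gamma subunits, which bind AMP, rose in both chambers, from 118.9 ± 17.7 to 183 ± 3.7 CPM in atria (0.62, adjusted P = 0.00334) and from 29.8 ± 1.3 to 49.4 ± 1.9 CPM in ventricles (0.73, adjusted P = 0.000268). Prkag1, another gamma subunit gene, passed in neither chamber and was 100 ± 8.7 CPM in control and 101 ± 3.5 CPM in CUG960 ventricles. The beta subunit gene Prkab2 was the 1 gene of these lists whose change differed between chambers, at 0.29 in atria and -0.16 in ventricles (interaction log2 difference 0.45, adjusted P = 0.0496).

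Carriers that exchange nucleotides and phosphate across the mitochondrial membranes showed 1 lower gene of 12 in each chamber and none higher, a share of 8.33% that is under that of all genes in both chambers, with medians of -0.10 and -0.12. Slc25a24, an ATP-magnesium and phosphate carrier, fell in atria from 10.2 ± 0.20 to 7.76 ± 0.24 CPM (log2 fold change -0.40, adjusted P = 0.0109), and Slc25a42, a carrier of coenzyme A, fell in ventricles from 64.8 ± 2.9 to 50.1 ± 3.6 CPM (-0.37, adjusted P = 0.0171). Slc25a4, the main ADP/ATP exchanger of heart, which works next to mitochondrial creatine kinase, did not pass in atria (log2 fold change -0.18, adjusted P = 0.11) or in ventricles (-0.11, adjusted P = 0.595).

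**Figure D5:**
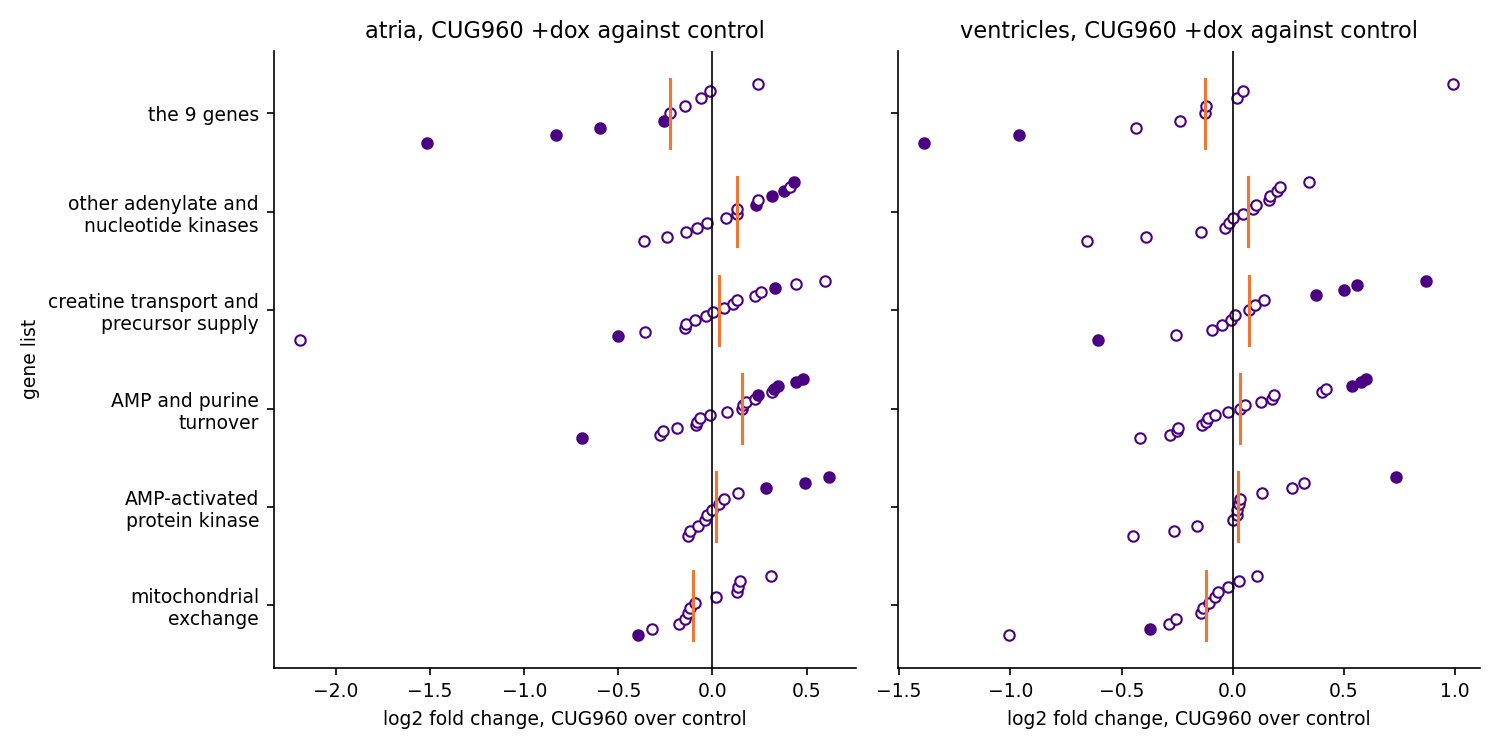
Fitted log2 fold change of CUG960 over control (horizontal axes) for the 9 genes and the tested genes of 5 related lists (vertical axis) in atria (left) and ventricles (right); each point is 1 gene, filled points passed an adjusted P of 0.05 and orange lines are list medians. The filled points of the 9 genes all lie below 0, while the medians of the other lists lie between -0.12 and 0.16.

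Markers of the cell types in the tissue were read beside these results. The summed level of 7 cardiomyocyte genes, led by Myh6, was 42260, 41550 and 42910 CPM in control atria and 45350, 44880 and 43800 CPM in CUG960 atria, and in ventricles it was 52100, 53960 and 51490 CPM against 53430, 58180 and 54560 CPM. Myh6 carried much of this sum, and the other 6 genes summed to 16320, 16240 and 17630 CPM in control and 14920, 15360 and 14350 CPM in CUG960 atria. In ventricles these 6 summed to 29290, 30590 and 27730 CPM in controls and 25890, 30170 and 27160 CPM in CUG960. The median log2 fold change of the 7 genes was -0.10 in atria and -0.12 in ventricles, and none was at 0. The 5 atrial markers, led by Nppa, summed to 28840, 28320 and 26260 CPM in control and 22870, 23730 and 21650 CPM in CUG960 atria. The part of these shifts in the results for the 9 genes was not tested. Of these 7, Ryr2, the calcium release channel, fell in both chambers (log2 fold change -0.53 in atria, adjusted P = 0.0277, and -0.67 in ventricles, adjusted P = 0.0105), Myh6 rose in atria and Mybpc3 in ventricles. Genes passing as lower made up 6.91% of all tested in atria and 4.44% in ventricles. Of 5 endothelial markers, 3 fell in atria and 2 in ventricles (60% and 40% of the list), and none was at 0. Their sum was 586, 600.3 and 504 CPM in control atria against 391, 436 and 399 CPM in CUG960 atria, and 781, 629 and 716 CPM against 533, 501 and 544 CPM in ventricles. Pecam1, the most abundant of them in atria, had log2 fold changes of -0.71 and -0.53 (adjusted P = 0.00241 and 0.00125), and Kdr, the most abundant in ventricles, did not pass there (-0.45, adjusted P = 0.188). The part of this shift in the results for the 9 genes was not tested.

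Skeletal muscle is rich in Ckm and Ak1, and its markers summed to between 0.991 and 2.97 CPM over 8 genes in the 12 libraries, and no value of their most abundant genes, Actn3 in atria and Mylpf in ventricles, exceeded 1.03 CPM. Of 4 tested in atria, 2 fell (50%), Tnnt3 and Tnni2, against 6.91% of all genes, and none of 4 passed in ventricles. Myh2 and Myh4 ran the other way in atria near the floor, from 0.0186 to 0.0675 CPM and from 0.00867 to 0.0392 CPM in CUG960. Myh4 was at 0 in 4 libraries, Myh1 in 2 and Tnnc2 in 1. Of 6 fibroblast markers, led by Dcn, 2 fell in atria (Pdgfra and Col1a2) and none passed in ventricles. That was 33.3% and 0% of the list, where 6.91% and 4.44% of all genes passed as lower. The fibroblast sums were 1479 to 2031 CPM in atria and 1072 to 1237 CPM in ventricles. None of 6 leukocyte markers passed in either chamber, Csf1r being the most abundant in atria and C1qa in ventricles, and none of 5 erythroid markers did, led by Hba-a1 in atria and Hbb-bs in ventricles. Of 6 smooth muscle markers, led by Acta2 in the mean of each chamber's 6 libraries, 1 fell in atria and 2 in ventricles, where Lmod1 was among them. These were 16.7% and 33.3% of the list, against the same 6.91% and 4.44% of all genes. None passed as higher, though mean Acta2 was 167 CPM in control and 210 CPM in CUG960 atria and 120 and 142 CPM in ventricles. Mean Tagln was 22.5 CPM in control and 52.0 CPM in CUG960 atria. Adipocyte markers summed to between 0.913 and 21.8 CPM. None of 4 tested passed in atria, and 2 of 4 (50%), Cfd and Plin1, fell in ventricles, against 4.44% of all genes. Of the neuron and Schwann cell markers, Dbh fell in both chambers. Of the chamber markers, Nppa fell in atria, Hey2 fell in both chambers, Irx4 rose in ventricles and Bmp10 fell in ventricles. Mitochondrially encoded transcripts took 10.9% to 12.2% of counts in atria, 19.6% to 20.5% in control ventricles and 15.3% to 18.4% in CUG960 ventricles, and normalization without them kept the calls of all 9 genes.

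Genes whose log2 levels ran most like those of the members that fell were found over all 12 libraries among 13111 genes. The points of each correlation share libraries, chambers and genotypes, so r is given as a description. For Ckmt2 the nearest were Coro6 (Pearson r = 0.990), Lrrc24 (0.987) and Kbtbd12 (0.987), and each of these fell in both chambers, Kbtbd12 by 0.88 on the log2 scale in atria and by 0.91 in ventricles. For Ckm the nearest was Tnnc1, the troponin C of heart and slow muscle (r = 0.996), which fell in atria by 0.65 on the log2 scale (adjusted P = 0.0031) and had a log2 fold change of -0.27 in ventricles that did not pass (adjusted P = 0.172). The next for Ckm were Ndufa4l2 and Tmem63b (0.990 and 0.989). For Ak1 they were Ndufa4l2 (0.995), Cdk2ap1 (0.992) and Ndufs7 (0.992), and for Ak4 Elk3 (0.984) and Rab21 (0.984) were among the 3 nearest. Among the members, Ckm and Ak1 ran together most closely of the pairs with a member that fell (r = 0.987), and Ckmt2 and Ak4 had an r of 0.961.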

How the data were processed

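The authors aligned the reads to mm10 (GRCm38) and estimated gene abundance with RSEM 1.3.1 on an Ensembl annotation, and the submitters' processing notes also name DESeq2. The deposited table gives expected counts for each gene and library as whole numbers, here treated as rounded, with no spike-in entries. The libraries hold poly(A)-selected RNA only. Counting that assigns shared stretches by estimate can move levels of genes with near copies, here Ckb and Ak4. By the same counting these copies were at most 0.468 CPM (Gm12892) and 0.0179 CPM (Ak3l2-ps). Genes were tested with edgeR 4.0.16 (TMM normalization, filterByExpr, quasi-likelihood F test with robust dispersion) and Benjamini-Hochberg adjustment over all genes that passed the filter. Genotypes were compared within the 6 libraries of a chamber, and chambers and their interaction with genotype in 1 fit of 4 groups over 12 libraries, the change in ventricles being subtracted from that in atria. CPM are on TMM library sizes of the 12 libraries. SE is the absolute log2 fold change divided by the square root of F. Sums and shares of the creatine kinases use the principal transcript of GENCODE M21; shares of the adenylate kinases and a few named genes are not reported here. The edgeR and DESeq2 fits were tested on simulated data.

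Named genes were the 9 members, in each related list up to 4 genes by smallest adjusted P among those with an adjusted P under 0.05 and at least 1.5-fold (or up to 2 under 0.05 where none reached that fold), the most abundant gene of each marker list, and for each member that passed in a chamber the 3 genes with the highest r among those with a mean of at least 1 CPM. Other genes named here were chosen after their values were seen. The members and lists were chosen with earlier results of these data known. Atria and ventricles of 1 mouse share its number in the labels, which pairs them. Deviations of same-mouse libraries from their group means correlated with r between 0.0302 and 0.135. For libraries of different mice r lay between -0.15 and 0.124, so the ranges overlap. Replicates are separate mice, and every pair differed by more than counting noise (chi-square per degree of freedom 41.3 to 122). With 3 mice against 3, an exact permutation test of a single gene cannot go below P = 0.1, so P values rest on the spread pooled over genes. Alternatives were RLE and upper quartile normalization, TMM without mitochondrially encoded genes, other filters, a single fit of all libraries, mouse as a replicate block, DESeq2 1.42.0, a log2 limit of 1.5 and leaving out each mouse.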

Additional observations from a re-analysis of the deposited data

Results flagged for a closer look

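Bmp10, a growth factor of atrial cardiomyocytes read here as a chamber marker, changed differently in the 2 chambers, by a log2 difference of 4.10 between the change in atria and that in ventricles (edgeR interaction test, adjusted P = 0.0117). Without V123 or V333 the difference no longer passed (4.17 and 4.23, adjusted P = 0.0728 and 0.0735), and without V119, V120, V327 or V334 in turn it passed, at 3.62 to 4.66. It was 1554 ± 492 CPM in control and 1586 ± 175 CPM in CUG960 atria, and 2.86 ± 0.77 and 0.173 ± 0.124 CPM in ventricles (mean ± SD, n = 3). Its value was 2.43, 2.39 and 3.75 CPM in the control ventricles of V327, V333 and V334 and 0.0343, 0.275 and 0.208 CPM in the CUG960 ventricles of V119, V120 and V123. The atrial genes Myl7 and Sln in the same libraries were 8.02, 4.98 and 19.3 CPM and 2.90, 2.99 and 7.84 CPM in controls, and 0.192, 0.304 and 55.9 CPM and 0.213, 0.341 and 18.6 CPM in CUG960. The part of atrial transcript in the Bmp10 difference was not tested.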

How the results depend on the processing

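Ckmt2 and Ak4 in both chambers and Ckm in atria kept their direction and their side of the threshold in all 13 alternatives, where the log2 fold change of Ckmt2 ranged from -1.57 to -1.45 (atria) and from -1.51 to -1.29 (ventricles) and that of Ak4 from -1.03 to -0.73 (atria) and from -1.05 to -0.87 (ventricles). Of 585 results for single members under an alternative, 560 kept direction and side, 7 lost a call, 5 gained one and 13 turned direction, the 13 all for values that did not pass in either setting. With mouse as a replicate block, the paired fit still called all 9 members in both chamber comparisons and 0 in the interaction (Ckm adjusted P = 0.166), and it changed no call among them. The lost calls were Ak1 in atria and Gamt between chambers, as given above. Calls gained were Ak3 in atria without a filter (adjusted P = 0.048), Ckmt1 in ventricles without a filter (0.0309), under a minimum of 10 counts per library (0.0478) and with DESeq2 (0.0306), and Ckm in the interaction with DESeq2, which made 1 member called in place of 0.

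A log2 limit of 1.5 left 1 member in atria, 0 in ventricles, 3 between chambers in controls and 4 in CUG960, by construction. Direction turned when 1 mouse was left out for Ckmt1 in atria (-0.41 to 0.15), Gatm in atria (-0.11 to 0.14), Ckb in ventricles (-0.13 to 0.11), Ak3 in ventricles (-0.0028 to 0.0931), and in the interaction for Ckb (-0.23 to 0.0998), Gamt (-0.0483 to 0.11) and Ak4 (-0.0491 to 0.29); the cause was not tested. By merged exon length the Ckmt2 share was 59.4% in control atria, 70.1% in control ventricles and 49.1% in CUG960 ventricles, and the Ckm share 29.1% in control ventricles. Over all genes, leaving out 1 mouse gave 1443 to 2780 calls in atria in place of 2670, 919 to 1439 in ventricles in place of 1773 and 95 to 176 in the interaction in place of 266, where DESeq2 gave 652. The log2 limit of 1.5 gave 214, 199, 2446 and 2343 calls in atria, ventricles and between chambers in controls and CUG960. Depth limits Ckmt1 most, at 31 to 120 counts a library in ventricles.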
